A study of Oryza sativa with 7 samples.

Results

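The rice genome was divided into bins of 100 bp, and 60216 bins of the 12 chromosomes carried methylated cytosines (mCs) in the drought-tolerant cultivar Nagina 22 (N22) and in no library of the other cultivars. A bin belonged to this set when both N22 libraries listed at least 3 mCs in it and none of the 5 libraries of IR64 and Pokkali listed any. The members were therefore selected on the listed mCs themselves, so that their presence in N22 and their absence elsewhere are given as a description, with no test. They made up 4.72% (4.68 to 4.75%) of the 1276889 bins that met the minimum in both N22 libraries, here called N22-listed bins, and 2273435 bins had an mC in at least 1 of the 7 libraries. All intervals are 95% Wilson intervals and cover counting error only, because each group had 1 library and no value carries a replicate error.

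The study compared seedlings of 3 rice (Oryza sativa) cultivars by whole genome bisulphite sequencing, in which unmethylated cytosines are read as thymine and methylated cytosines stay cytosine. IR64 is the sensitive cultivar, N22 withstands drought, and Pokkali withstands salinity. IR64 was sequenced from control, desiccated and salt-treated seedlings, N22 from control and desiccated seedlings, and Pokkali from control and salt-treated seedlings. Controls were kept in water, desiccation was on dry filter paper, and salinity was 200 mM salt. Each control library was made from DNA pooled over biological replicates, and pooling was not stated for the stressed libraries. Positions are those of the MSU release 7 genome, to which reads of every cultivar were aligned.

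In plants, cytosines are methylated in the CG context and in CHG and CHH (H being any base but G). CG methylation is copied at replication by MET1 and occurs both in transposons and inside expressed genes, CHG methylation is kept by chromomethylases that read histone H3 lysine 9 methylation and marks mainly transposons and other heterochromatin, and CHH methylation has to be laid down anew, in part by the RNA-directed DNA methylation pathway. Transposon insertions and deletions are a common source of sequence that is present in 1 rice cultivar and missing from another.

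Each table listed only the cytosines called methylated at 5 or more reads. A cytosine that was not listed may have been unmethylated, covered by too few reads, or absent from that cultivar's genome, and these cannot be told apart at a single bin. The libraries listed between 14843198 and 18209800 mCs with a median depth of 10 to 15 reads. N22 control listed the most, and N22 desiccation listed 16158169, fewer than IR64 desiccation at 16595141 and Pokkali control at 16818714.

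The set was larger than its counterparts built with the same rule for the other cultivars. Pokkali had 29381 bins of its own, 2.38% (2.35 to 2.41%) of its 1233601 listed bins, and IR64, whose rule used 3 own and 4 other libraries, had 25055, or 2.16% (2.13 to 2.19%) of 1159692. Of the N22-listed bins, 114095 (8.94%) had no mC in IR64 and 108660 (8.51%) had none in Pokkali. The 60216 members belong to both groups, and the remaining bins were shared with 1 other cultivar, 53879 with Pokkali and 48444 with IR64.

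Among listed mCs, the members had larger shares of CG and CHG and a smaller share of CHH than the other N22-listed bins. In N22 control they held 793353 mCs, of which 51.9% were CG, 33.8% CHG and 14.3% CHH, whereas the other N22-listed bins held 47.8% CG, 31.1% CHG and 21.0% CHH. In N22 desiccation the members had 50.6% CG, 34.0% CHG and 15.4% CHH, against 47.0%, 30.9% and 22.1%. The order of the contexts was the same in both libraries, and the lower CHH share was seen in each. Members were also less deeply covered. Their listed cytosines had a median of 12 reads in control and 11 in desiccation, against 14 and 13 in other N22-listed bins. With N22 cytosines of 10 or more reads the CG share of members in control was 47.8%, and the other bins were not computed at that limit. The part of depth in these shares was not tested.

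Counted by bin, the most frequent member type in N22 control carried all 3 contexts (39.7% of members), followed by CG with CHG and no CHH (37.4%). CG alone was found in 11.4%, CHG without CG in 6.09%, CG with CHH in 4.45% and CHH alone in 0.942%. Among the other N22-listed bins, bins of all 3 contexts were more frequent (45.2%), bins of CG with CHG less frequent (26.5%), and bins of CG alone made up 14.7%. CG with CHG and without listed CHH was thus the class in which the members stood furthest from the remaining bins.

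The methylation level, the percent of reads at a cytosine that were unconverted, was similar to that of other methylated DNA in N22 when averaged over cytosines. The mean CG level per site in N22 control was 90.6% in members and 90.7% in other N22-listed bins, and the medians were 95.7% and 94.7%. The mean CHG levels were 69.3% and 70.2%, and the mean CHH levels were 44.9% and 45.5%. In N22 desiccation the members had mean levels of 89.0% (CG), 67.7% (CHG) and 42.8% (CHH), against 89.8%, 69.0% and 42.9% in other N22-listed bins. Averaged over all members, listed cytosines were therefore methylated to about the same degree as in other N22-listed bins. The averages cover run classes and a block of bins with different levels, which are described below.

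Levels pooled over reads gave lower values for CG, since a few members had very high depth. The pooled CG level of members was 84.4% in N22 control and 76.8% in N22 desiccation, against 88.4% and 86.2% in other N22-listed bins. Without cytosines above the 99th percentile of depth (77 reads in control and 68 in desiccation) the member values were 90.01% and 87.1%, and those of the other N22-listed bins 90.4% and 88.9%. That alternative was chosen after the data were seen, and the bins behind the difference are described with their positions further on.

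**Figure D1:**
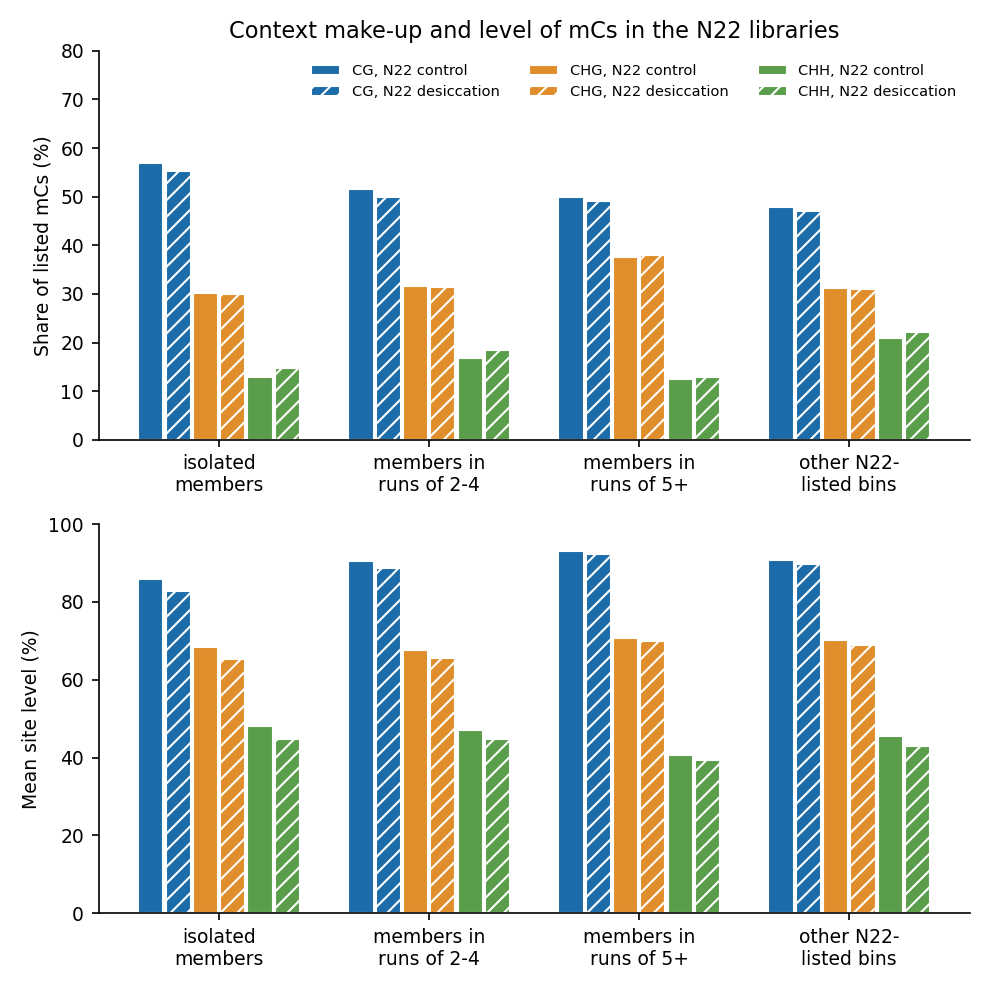
Upper panel, the percent of listed mCs in each context. Lower panel, the mean methylation level per site in percent. Groups are isolated members, members in runs of 2 to 4 bins, members in runs of 5 or more bins and other N22-listed bins, with solid bars for N22 control and hatched bars for N22 desiccation. In N22 control the CG share goes from 57.0% in isolated members to 49.9% in runs of 5 or more, while the mean CG level goes from 86.0% to 93.1%.

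Members fell into 26998 runs of consecutive bins. Isolated bins, with no member on either side, numbered 15505 and were 25.7% (25.4 to 26.1%) of members. Runs of 2 to 4 bins held 23266 members (38.6%), and 2600 runs of 5 or more bins held 21445 (35.6%, 35.2 to 36.0%). Only 94 runs reached 20 bins, with 2551 members, and the longest spanned 48 bins. The Pokkali-only and IR64-only bins were split in a similar way, with 32.3% and 30.9% isolated and 31.2% and 30.3% in runs of 5 or more, and their longest runs were 57 and 78 bins.

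**Figure D2:**
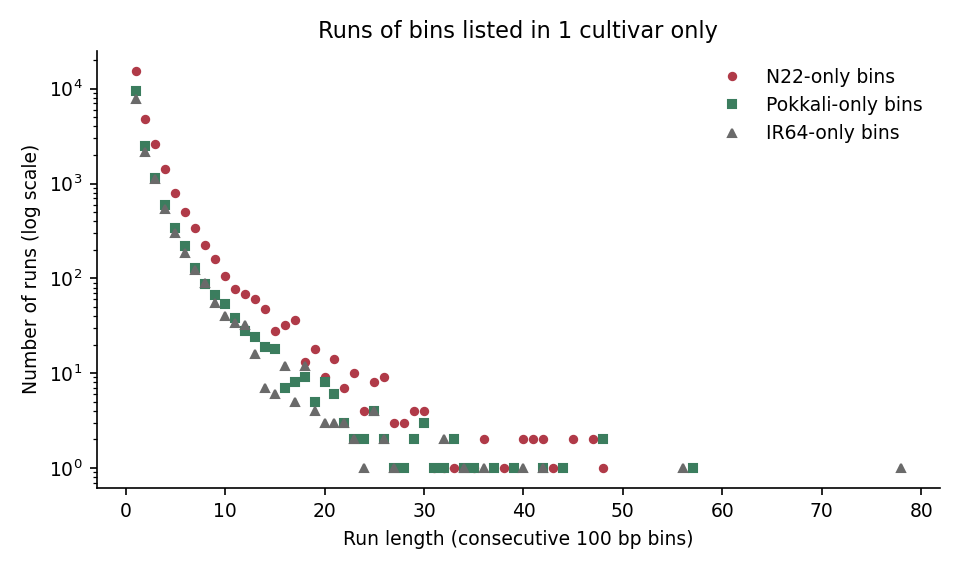
Number of runs (log scale) against run length in consecutive bins of 100 bp, for bins listed only in N22 (circles), only in Pokkali (squares) and only in IR64 (triangles). The N22 counts lie above the other cultivars at most short and middle lengths, starting from 15505 runs of a single bin, while the longest single runs, of 57 and 78 bins, belong to Pokkali and IR64.

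Isolated members and members of long runs differed in composition, level and depth. Isolated members had 57.0% CG, 30.1% CHG and 12.9% CHH in N22 control, and members in runs of 5 or more had 49.9%, 37.6% and 12.5%. CG alone marked 22.7% of isolated members and 4.33% of members in long runs, and all 3 contexts were present in 27.4% and 49.2%. The mean CG level was 86.0% in isolated members and 93.1% in long runs, and in N22 desiccation it was 82.8% and 92.3%. CHH went the other way, at 48.2% in isolated members and 40.6% in long runs of N22 control. Runs of 2 to 4 bins were intermediate in CG share (51.6%) and CG level (90.4%) and had the highest CHH share (16.9%).

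The long runs were also better covered. The median depth of a listed cytosine in N22 control was 10 reads in isolated members, 12 in runs of 2 to 4 and 14 in runs of 5 or more, and other N22-listed bins had 14. The median number of mCs per bin was 7, 11 and 14 in the same order, and 11 in other N22-listed bins. In isolated members 47.0% of the listed cytosines had fewer than 10 reads, compared with 24.6% in long runs. In N22 desiccation the median depth was 9 reads in isolated members, 11 in runs of 2 to 4, 12 in long runs and 13 in other N22-listed bins. The part of depth in the differences between run classes was not tested.

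CG sites are symmetric, so the opposite strand offers a second reading of the same site. For CHG the partner was the listed cytosine opposite the G of the site, in any context. In CCG sites that partner is a CG cytosine, so the CHG values below include such mixed pairs. For a plus-strand CG mC in N22 control the cytosine on the other strand was also listed in 61.9% of cases in isolated members, in 89.3% in runs of 5 or more and in 84.8% in other N22-listed bins. For CHG the values were 57.7%, 89.2% and 83.3%. In N22 desiccation they were 58.4%, 80.1% and 80.6% for CG and 53.2%, 81.9% and 79.3% for CHG. Where both strands were listed in N22 control, their levels in members differed by a mean of 7.81 points for CG and 20.1 points for CHG. The CHG difference is not one within symmetric CHG sites alone, because pairs of a CHG with a CG cytosine were not set apart. The other N22-listed bins had close values of 8.04 and 20.3 points.

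The threshold of the rule did not mark a gap in the data. Exactly 3 mCs in the poorer N22 library were found in 6286 members, with a mean CG level of 84.1% in control and 77.5% in desiccation. Just outside, 13230 bins had 2 mCs in the poorer N22 library and none elsewhere, with levels of 79.9% and 73.6%. On the other side of the rule, 7009 N22-listed bins had exactly 1 mC over all 5 other libraries and 6092 had exactly 2, and their mean CG levels in N22 control were 86.7% and 87.6%.

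Most members lay in stretches of several bins in which the other cultivars listed nothing. By the rule every run of members is itself such a stretch, so only the length beyond the run was free to vary. The stretch without an mC of the 5 other libraries that contained a member had a median length of 12 bins, 4 bins for isolated members and 25 bins for members of long runs, and the longest reached 369 bins. Such a stretch was 1 bin long, the member itself, for 4666 isolated members (30.1%). The runs were often parts of 1 larger stretch. Of the 4253 gaps of 1 bin between neighbouring runs, 66.4% also lacked any mC of the other libraries.

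The bins beside a member showed the same contrast. Next to isolated members, N22 control listed an mC in 70.6% of neighbouring bins and N22 desiccation in 64.7%, whereas the other libraries did so in 22.7% (IR64 salinity) to 30.5% (Pokkali control). Next to other N22-listed bins the other libraries listed an mC in 80.6 to 84.2% of neighbours, and over all bins in 45.0 to 48.6%. Next to the ends of long runs the values were 77.0% and 69.1% in the N22 libraries and 15.9 to 21.8% elsewhere. All 5 other libraries were thus below their genome-wide share beside members. The rule set no limit on the other libraries in these neighbours, beyond their not being members.

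**Figure D3:**
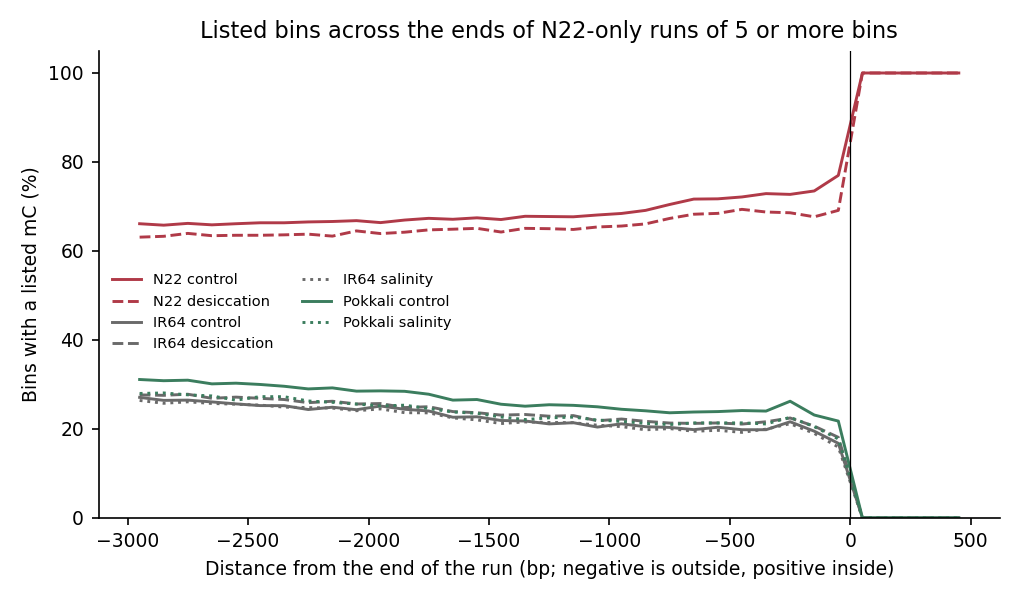
Percent of bins with at least 1 listed mC against the distance in bp from the 5200 ends of N22-only runs of 5 or more bins (negative outside, positive inside the run). Solid lines are control, dashed lines desiccation and dotted lines salinity libraries of N22 (red), IR64 (grey) and Pokkali (green). Inside the run the rule fixes 100% and 0%. Outside, the 5 other libraries are at 15.9 to 21.8% in the first bin and rise to 27.1% in IR64 control by 2950 bp, and N22 control goes from 77.0% to 66.1%.

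Few runs had flanking bins in which every other library listed several mCs. A neighbour that was covered but unmethylated is not counted here. Both flanking bins held 3 or more mCs in all 5 other libraries for 147 of the 26998 runs, 101 of them isolated bins, 43 of 2 to 4 bins and 3 of 5 or more. In 57 of these, with 76 members, the mean depth of the flanks was also 10 reads or more in each other library. They comprised 44 isolated bins and 13 runs of 2 to 4 bins, and no longer run. This subset was picked after the values were seen and is described without a test. The coverage of the member bins themselves in the other libraries is not known.

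In these 76 members CHG was the leading context. N22 control listed 649 mCs there, of which 59.0% (55.2 to 62.7%) were CHG, 32.2% CG and 8.78% CHH, and N22 desiccation listed 639, of which 60.1% were CHG. In the 180322 other N22-listed bins that lay between flanks of the same quality, CHG made up 37.6% in N22 control. Among the 44 isolated bins the CHG share was 69.1% (63.5 to 74.1%). No CG was listed in 37 of the 76 members (48.7%, 37.8 to 59.7%), compared with 7.03% of all members. The choice of bins bears on these contrasts. Members could hold no mC of the other libraries, whose listed mCs in the flanks were 63.7 to 67.9% CG. The compared bins had to hold such an mC, so the context shares are not independent of the rule. The CHG level was moderate, with a mean of 58.0% per site in control and 53.5% in desiccation, against 71.0% and 69.6% in the compared bins.

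The flanks of these runs showed the same context difference between cultivars. Over the 110 flanking bins N22 control listed 612 CG mCs and N22 desiccation 616, and the 5 other libraries listed between 577 and 606. The CG counts were thus similar, but the mean CG level per site was 87.2% and 86.5% in the N22 libraries and 72.4 to 77.3% in the others. For CHG the N22 libraries listed 478 and 475, and the other libraries 99 to 122. The CHG share was thus 37.3% in N22 control and 11.6 to 12.8% in the other libraries. The median depth was 18 and 20 reads in the N22 libraries and 17 to 22 in the others. In the flanks of the compared bins, by contrast, every library had a CHG share between 35.2 and 36.6% and a mean CG level between 88.3 and 90.4%. The first flanks adjoin bins chosen because N22 alone listed mCs, and the compared flanks adjoin bins that another library listed. The contrast is therefore not independent of the choice of bins.

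An isolated member on chromosome 3 (5310601 to 5310700) shows this pattern at single sites. N22 control listed 18 mCs in it, all CHG and on both strands, at a mean depth of 74.0 reads and a pooled level of 43.8%. N22 desiccation listed 18, again all CHG, at 80.1 reads and 38.0%. The bin was unusually deep, above the 99th percentile of depth in desiccation (68 reads) and just below it in control (77 reads). Whether reads of further copies entered it was not tested. At position 5310651 on the minus strand 40 of 49 reads were methylated in control, whereas at 5310621 on the plus strand 10 of 93 were, so the levels varied widely within the bin. In the bin before it all 7 libraries listed the same number of CG mCs, 4, at mean levels of 90.1 to 97.7%, but only the N22 libraries listed CHG there, 17 each at 45.5% and 39.9%. In the bin after it the N22 libraries listed 8 CHG mCs each, IR64 desiccation listed 1 and the remaining libraries none. The other libraries had a mean depth of 17.3 to 33.3 reads at their listed cytosines in these flanks, and N22 had 63.3 to 81.3.

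A run of 3 bins on chromosome 9 (1956301 to 1956600) was of the same kind. It held 28 CHG mCs and 1 CHH mC in N22 control, at a pooled level of 79.9%, and 29 CHG and 5 CHH mCs in N22 desiccation, at 70.5%, and no CG in either. The other libraries listed 4 mCs in the bin before it and 8 or 9 in the bin after it, at mean depths of 17.0 to 29.1 reads and levels of 82.3 to 96.6%. On chromosome 12 (925901 to 926100) a run of 2 bins held 16 mCs in N22 control and 20 in N22 desiccation, all CHG, at 42.4% and 49.9%.

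CG methylation was also found in well-flanked members. A run of 3 bins on chromosome 4 (31024301 to 31024600) held 38 CG and 16 CHG mCs in N22 control at a pooled level of 79.7%, and 38 CG and 13 CHG in N22 desiccation at 78.9%. In the bin before it the other libraries listed 4 to 13 mCs at levels of 16.0 to 20.2%, with mean depths of 32.1 to 47.0 reads, while N22 listed 15 and 10 mCs at 57.3% and 67.8%. In the bin after it all libraries were methylated, at 60.5 to 82.2%. The run of 4 bins on chromosome 3 (13075301 to 13075700), the longest of this subset, had 16 CG, 6 CHG and 1 CHH mCs in N22 control at 72.4%, and its flanks in the other libraries were at 47.1 to 66.8%.

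On chromosome 7 an isolated member (29460101 to 29460200) lay beside a step in level. It had 14 CG mCs with a mean level of 82.5% in N22 control and 14 with 82.3% in N22 desiccation. In the bin after it the N22 libraries had 9 and 10 CG mCs at 67.5% and 66.8%, and the other libraries had 4 or 5 at 10.6 to 18.9%, with mean depths of 17.4 to 37.7 reads. In the bin before it, which carried mainly CHH, all libraries lay between 59.8 and 75.7% over all contexts. Its few CG mCs numbered 3 in each N22 library, at 77.5% and 64.2%, and 1 in each other library, at 30.4 to 53.8%. The CG levels thus separated N22 from the other cultivars in both flanks, though on very few CG mCs in the bin before. The levels over all contexts in that bin did not separate them.

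Other isolated members with many mCs had thinly covered flanks in the other cultivars. The bin at 18966701 to 18966800 on chromosome 2 held 28 mCs in N22 control, 20 of them CG at a mean of 94.7%, and 27 in N22 desiccation. In its flanks the other libraries listed 3 to 11 mCs at mean depths of 5 to 8.36 reads, just above the minimum for listing, where N22 control had 20.1 and 26.1. The bins at 17011101 on chromosome 1 (24 mCs in each N22 library) and 8935001 on chromosome 12 (24 and 23) were flanked by cytosines with mean depths of 5 to 7.60 and 5 to 15.8 reads in the other libraries. The bin at 35301601 on chromosome 4 had no CG and held 8 CHG and 12 CHH mCs in N22 control at 49.8% over all reads, and its flanks were methylated in all 7 libraries, at depths of 5 to 8.43 reads outside N22.

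The members were unevenly spread over the chromosomes. Their share among N22-listed bins was highest on chromosome 7 (7.39%, 7.23 to 7.55%) and chromosome 11 (7.05%, 6.89 to 7.21%), followed by chromosomes 1 and 12 (both 6.11%) and 4 (5.78%). It was lowest on chromosome 5 (1.90%, 1.82 to 1.99%) and chromosome 3 (2.15%, 2.07 to 2.24%). The isolated share of members was 35.5% on chromosome 5 and 35.1% on chromosome 3, compared with 21.6% on chromosome 1, although 1 run on chromosome 5 reached 47 bins. The order differed in the other cultivars. On chromosome 5 IR64 had its highest share, 4.50%, while Pokkali had 1.0%, and on chromosome 7 they had 1.43% and 2.16%.

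**Figure D4:**
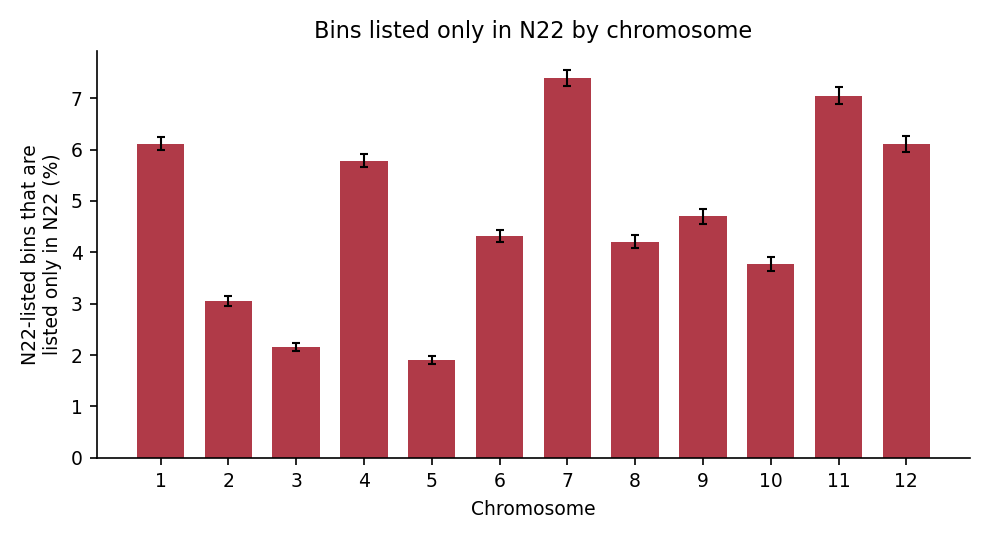
Percent of N22-listed bins that were listed only in N22, for each of the 12 chromosomes. Bars are shares and error bars are 95% Wilson intervals, which cover counting error only. Chromosomes 7 (7.39%) and 11 (7.05%) are highest, and chromosomes 5 (1.90%) and 3 (2.15%) are lowest.

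Within chromosomes the members were concentrated in few windows of 1 Mb. The median of the 380 windows held 73.5 members, the quartiles were 45 and 173, and the top 38 windows together held 43.8% of all members. In 46 windows more than 10% of N22-listed bins were members, where the median window had 2.45%.

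The windows with most members were 15 to 16 Mb of chromosome 1, with 1952 members, or 34.8% of its N22-listed bins, and the next megabase of the same chromosome, with 1307 (19.96%). They were followed by 18 to 19 Mb of chromosome 4 with 1244 (28.5%), 27 to 28 Mb of chromosome 7 with 1218 (36.7%) and 28 to 29 Mb of chromosome 11 with 1118 (37.2%), the highest share. The window of 16 to 17 Mb on chromosome 12 had 985 members (32.3%). In these windows 43.0 to 58.0% of members lay in runs of 5 or more. The first of them held 14 Pokkali-only and 12 IR64-only bins (0.648% and 0.622% of the bins listed in those cultivars). Such bins were more frequent in the window on chromosome 11, with 127 (7.07%) and 13 (1.03%), and in that on chromosome 12, with 98 (5.17%) and 84 (5.07%). Chromosome 1 at 15 to 16 Mb had 5612 bins listed in both N22 libraries, 2160 in both Pokkali libraries and 1928 in all 3 IR64 libraries, so the other cultivars listed fewer bins over the whole window.

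The 10 longest runs, of 41 to 48 bins, lay on chromosomes 1, 5, 6, 7, 8, 10 and 11. The longest occupied 4800 bp of chromosome 11 (28489501 to 28494300), inside the window with the highest share. It held 535 mCs in N22 control and 560 in N22 desiccation, at mean depths of 16.9 and 16.7 reads. Its 251 CG mCs had a mean level of 94.9% in control, its 236 CHG mCs 72.6% and its 48 CHH mCs 36.5%. No mC of any other library was listed within 1 kb on either side, and the stretch without such mCs was 167 bins long, whereas N22 control listed 54 and 25 mCs in the 1 kb before and after.

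The next runs resembled it in level. The run on chromosome 8 (16804201 to 16808900) held 918 mCs in N22 control, with CG at 94.4% and CHG at 74.8%, and the run on chromosome 5 (4453701 to 4458400) held 581, with 93.6% and 72.2%. Over all 10 runs and both libraries the mean CG level ranged from 93.1 to 95.7%, that of CHG from 71.2 to 75.7%, and that of CHH from 23.2 to 47.9%. The contexts were less uniform than the levels. The run on chromosome 1 (16006101 to 16010600) held 118 CG and 365 CHG mCs in N22 control, and that on chromosome 8 at 4940401 held 516 CG and 307 CHG.

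The borders of these runs differed between loci. The other libraries listed 41 to 97 mCs in the 1 kb after the run at 23522301 on chromosome 6 and 17 to 70 in the 1 kb before the run at 4940401 on chromosome 8, so methylated sequence of all cultivars resumed there within that distance. At 16358101 on chromosome 10 they listed 13 to 33 mCs in the 1 kb before and none after. The largest stretch by members lay on chromosome 8 (16791201 to 16809500). Over its 18.3 kb no other library listed an mC, and it held 132 members, with 2475 mCs in N22 control and 2140 in N22 desiccation. Stretches of the same kind with 103 to 108 members were found on chromosomes 9 and 12, over 15.7 to 23.5 kb.

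A block of members on chromosome 9 stood apart by depth and level. Between 4700001 and 4750000 there were 131 members, of which 103 had a level below 20% in both N22 libraries, out of 232 such members in the genome. Over the 131 members the median of the mean depth was 401 reads in N22 control and 807 in N22 desiccation, and the median level was 4.45% and 2.49%. CG made up 78.0% of the listed mCs in control and 78.5% in desiccation. The other 5 libraries listed mCs elsewhere in the same 50 kb, in 141 to 166 of its 500 bins, at mean depths of 14.3 to 16.7 reads and levels of 63.5 to 73.2%. Levels as low as those of the N22 members can be called against the non-conversion rate only at high depth. At the depths of the other libraries such levels could go unlisted. The part of depth in the membership of these bins was not tested.

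The bin at 4729501 to 4729600 held 13 CG mCs in N22 control with 326 of 7366 reads methylated, or 4.43%, and 14 CG mCs in N22 desiccation with 343 of 15534, or 2.21%. Its depth per cytosine was 567 reads in control and 1110 in desiccation. The number of methylated reads was close in both libraries here but not in every bin of the block, since the bin at 4727101 had 199 in control and 329 in desiccation and that at 4706601 had 429 and 216. This block supplied 3.11% of all reads over members in N22 control and 5.95% in N22 desiccation. Without it the pooled CG level of members was 88.9% in control and 85.4% in desiccation, in place of 84.4% and 76.8%.

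The desiccated and the control N22 library were then compared in the members. The rule did not use the level in either library, but it required mCs in both, and the test used cytosines listed in both, so bins that lost or gained all their listed mCs could not be called. For each bin with at least 3 cytosines listed in both libraries, methylated and unmethylated reads were summed over those shared cytosines and set against each other with Fisher's exact test (two-sided). Its p-values were corrected after Benjamini and Hochberg across the 1232575 bins tested. A bin was called at a difference of 20 points or more and an adjusted p of 0.01 or less. The test compares 2 libraries and not 2 conditions, since neither had a replicate, and reads of 1 bin are not independent, as a read covers several cytosines.

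Of 56924 members tested, 54 were called (0.0949%, 0.0727 to 0.124%), and 0.0948% of all tested bins were called. Lower levels under desiccation accounted for 50 of the 54, and over all bins 0.0879% were called lower and 0.0069% higher. The calls were spread over the run classes, with 13 of 13863 isolated members, 23 of 22085 in runs of 2 to 4 and 18 of 20976 in runs of 5 or more. The share of members called was close to the background over all contexts. With CG alone it was 0.067% against 0.0401% of all bins tested, and with CHG alone 0.0342% against 0.0193%. With CHH alone it was 0.743% against 0.758%. The median difference was -0.90 points in members and -0.94 points in other N22-listed bins.

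**Figure D5:**
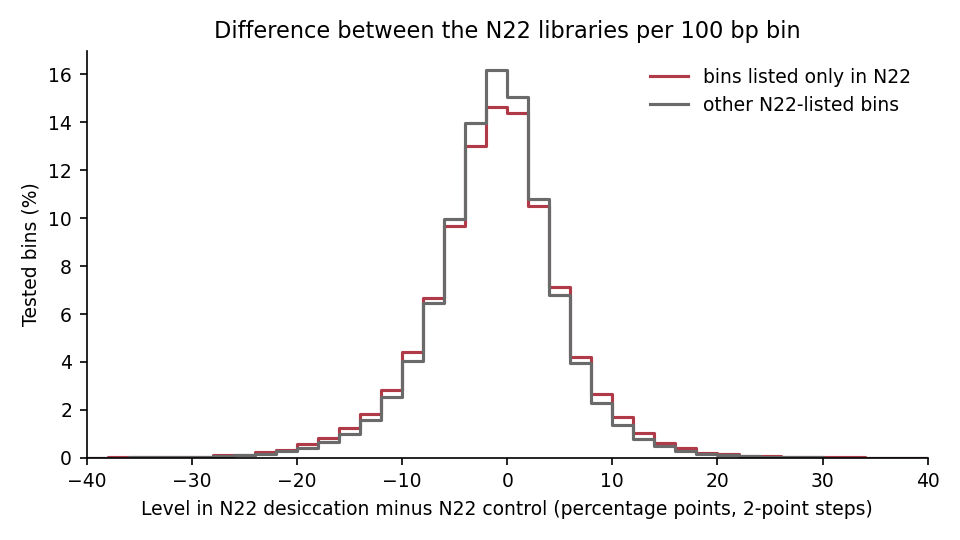
Percent of tested bins against the difference in level, N22 desiccation minus N22 control, in steps of 2 percentage points and with the rare larger differences cut off, for the 56924 tested members (red) and the other N22-listed bins (grey). The curves peak near 0, with medians of -0.90 and -0.94 points, and the members have a slightly wider spread, with 1.44% of them at 20 points or more in either direction against 1.10%.

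By context, the mean level of cytosines listed in both N22 libraries was lower in desiccation by small amounts. In members CG went from 90.3% to 89.5%, CHG from 71.1% to 70.0% and CHH from 50.8% to 48.3%. The corresponding differences were -0.77, -1.04 and -2.50 points, and in other N22-listed bins they were -0.60, -1.05 and -2.82 points. CHH showed the widest gap between the libraries in both sets of bins.

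Among the called members, the fall was deepest on chromosome 6 (3560001 to 3560100), where 5 CG and 1 CHG cytosines went from 72.4% of 116 reads (63.7 to 79.7%) to 35.6% of 59 reads (24.6 to 48.3%), with an adjusted p of 0.00178 by Fisher's exact test. A member on chromosome 2 (7934201 to 7934300) went from 58.5% of 53 reads to 23.4% of 94 reads (adjusted p = 0.00959, Fisher's exact test), and 8 CHH cytosines on chromosome 6 (7271601 to 7271700) from 68.8% to 36.5% of 96 reads each (adjusted p = 0.00462, Fisher's exact test). These members were chosen for the size of their fall among called members, so the separation of their intervals adds nothing to the call.

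Higher levels under desiccation were called in 4 members. The widest rise was on chromosome 9 (11630701 to 11630800), where 10 CG and 1 CHG cytosines went from 36.4% of 132 reads to 65.9% of 85 reads (adjusted p = 0.00838, Fisher's exact test). On chromosome 7 (2295501 to 2295600) 9 CG cytosines and 1 CHH cytosine went from 75.9% of 112 reads to all of 58 reads (adjusted p = 0.00194, Fisher's exact test). On chromosome 12 (16191001 to 16191100) 10 CHH and 2 CHG cytosines went from 49.2% of 177 reads to 71.9% of 178 reads (adjusted p = 0.00486, Fisher's exact test). With CG cytosines tested alone, 28 members were called lower and none higher, so the rises in the bins of mainly CG were not called there.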

How the data were processed

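The authors aligned paired-end reads of the control libraries with Bismark to MSU release 7, discarded duplicate and multiply mapping reads, and used Methylkit for mC calls, by a binomial test at p 0.001 against the chloroplast non-conversion rate, with 5 or more reads. For the stressed libraries these steps were not given in the sources used here. Each deposited table gave the read depth as a count per cytosine, not normalized, and the methylation level as a percent of reads. Methylated reads were recovered as whole numbers from both, within 0.005 points. Bins of 100 bp were numbered from base 1 of each chromosome. Members and lists were chosen with earlier results of these data known. The text names the 10 longest runs, 6 of the 72 isolated members with 50 or more reads and 3 or more mCs in both neighbours in all 7 libraries, the windows with most members or the largest share, and the called members of most extreme difference with 50 or more reads. Well-flanked runs were named after their values were seen. Python 3.11.15, numpy 2.4.6, scipy 1.17.1 and numba 0.67.0 were used. The test was checked on simulated data. Sequences and gene or transposon annotation of this genome build were not used here.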

Additional observations from a re-analysis of the deposited data

Results flagged for a closer look

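On the sequences not assigned to a chromosome (ChrUn and ChrSy), which no comparison above used, 122 of 4153 N22-listed bins (2.94%) met the same rule, compared with 4.72% on the 12 chromosomes.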

How the results depend on the processing

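With N22 cytosines of 10 or more reads there were 37680 bins listed only in N22, with both neighbours also empty in the other cultivars 39776, with bins of 200 bp 32456, and with control libraries only 138226. The number stayed within 1.5 times of 60216 under the other alternatives and was 62573 to 70234 without each other library in turn, an alternative chosen after the data were seen. The CG share in N22 control was 51.1% with 5 mCs per bin, 47.8% with 10 reads, 51.8% with empty neighbours, 52.6% with bins of 200 bp and 56.4% with control libraries only, and 50.2% in N22 desiccation with stressed libraries only. Without each other library it was 51.9 to 52.3%. In the same order the pooled CG level was 86.1%, 81.3%, 83.0%, 83.3%, 86.7% and 77.0%, with 1 mC allowed elsewhere 84.1%, on a grid shifted by 50 bases 84.5%, without depths above the 99th percentile 90.01%, and without each other library 84.5 to 84.7%. The share in runs of 5 or more was 32.6%, 30.8%, 43.2%, 30.2%, 32.7% and 33.7% in that order, 35.1% with 1 mC elsewhere, 36.3% on the shifted grid and 35.0 to 35.6% without each other library.

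The 54 members called between desiccation and control became 130 at 10 points (0.228% of members tested and 0.243% of all bins), 11 at 30 points (0.0193% and 0.0196%), 28 with CG alone (0.067% and 0.0401%), 10 with CHG alone (0.0342% and 0.0193%) and 1058 when cytosines listed in either library were summed (1.76% and 2.36%). There were 45 with 10 or more reads per cytosine (0.127% and 0.109%) and 49 without depths above the 99th percentile (0.0864% and 0.0839%). With CHH alone 47 of 6322 members tested were called (0.743% and 0.758%), and with 5 shared mCs 55 (0.125% and 0.124%). The causes were not tested. No paired analysis was possible because each group had 1 library. Depth limits the set, since isolated members had a median of 10 reads per cytosine in N22 control, and the tables hold no cytosine below 5 reads, so a low-coverage bin of another cultivar cannot be told apart from an unmethylated or missing one.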
